A study of Mus musculus with 6 samples.

Results

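Arterial endothelial cells (ECs) of dorsal mouse skin were picked from 6 scRNA-seq libraries, each made from tdTomato+ cells sorted from 1 mouse. Cells were kept where the number of genes with a UMI (unique molecular identifier, 1 per captured transcript) lay between 200 and 5000 and mitochondrial genes took less than 10% of the UMIs. A cell was taken as endothelial with no UMI of Ptprc, the CD45 gene of immune cells, and at least 1 UMI of Pecam1, the CD31 gene of ECs. Each EC was then scored by the number of genes with a UMI in 6 sets of 5 genes. A cell was an arterial member when at least 2 of Gkn3, Sema3g, Cytl1, Stmn2 and Gja4 had a UMI and its arterial score was above that of the venous, the 2 capillary and the 2 lymphatic sets. This rule gave 1351 arterial members among 12093 Pecam1+ Ptprc- cells, out of 20941 cells within the limits and 27418 barcodes. The same rule put 1143 cells in the venous class, 2172 in the Kdr-type capillary (Cap-Kdr) class, 2443 in the Rgcc-type capillary (Cap-Rgcc) class, 1565 in the collecting lymphatic class and 922 in the capillary lymphatic class, and 2497 in none. The 30 set genes, Pecam1 and Ptprc chose the members and were not tested. The arterial set and some genes of the other sets are described below.

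The 4 wild type (WT) mice carried tdTomato, Cdh5-CreERT2 and Krt14-H2BGFP on a C57BL/6;CD1 background. Cdh5-CreERT2 is a tamoxifen-dependent Cre recombinase driven by the VE-cadherin gene, so the sort reached whatever cells had expressed that gene, and tamoxifen was given at postnatal day (PD) 17 at 200 µg per g in every group. Telogen skin (hair follicles at rest) was taken at PD 20 and anagen skin (follicles in growth) at PD 32, from 2 mice each. The 2 mice labelled Alk1 KO carried Alk1 flox/flox, tdTomato and Cdh5-CreERT2 on C57BL/6 and were taken in telogen at PD 25. The KO and telogen groups therefore differ in genotype, strain, the Krt14-H2BGFP allele, age and the interval since tamoxifen, which was 8 days in the KO, 3 days in telogen and 15 days in anagen. These cannot be told apart. Sex was not balanced either: both KO mice were female, while telogen S1 was female and telogen S2 male, by Xist and Ddx3y. A further label of the KO mice reads wild type, and Acvrl1, the gene of Alk1, was not lower in their arterial members. Its level was 276 and 238 CPM in telogen S1 and S2, 270 and 279 in anagen, and 322 and 283 in the libraries labelled KO. Reads at the 3′ end of a transcript can lie outside the floxed exons, so this level checks nothing, and the libraries are called "labelled KO" here. CPM are UMIs of a gene for every 1000000 UMIs of the members of a library. Where arterial members of different conditions are compared, CPM are scaled by TMM, the trimmed-mean scaling of edgeR. Levels of the classes, of members split by a rule gene or by score, and of summed marker lists are not scaled.

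Arterial members numbered 111 and 117 in telogen S1 and S2, 309 and 597 in anagen S1 and S2, and 93 and 124 in the libraries labelled KO. Whole libraries held 32626434 and 43317677 UMIs in telogen, 35035677 and 29851591 in anagen, and 10615358 and 11239445 in the libraries labelled KO. The members themselves held 736077, 713707, 1828774, 2590962, 632455 and 660177 UMIs in the same order. Their median depth was 5833 and 5099 UMIs per cell in telogen, 5325 and 3951 in anagen, and 6727 and 4527 in the libraries labelled KO. Libraries shared 82 cell barcodes over their 15 pairs, from 2 to 13 a pair, and no arterial member had a shared barcode. Cells with a Ptprc UMI made up 28.3% and 40.5% of kept cells in telogen but 6.25% and 1.53% in anagen and 2.86% and 5.41% in the libraries labelled KO. Telogen S1 and both libraries labelled KO were female by Xist, and telogen S2 and both anagen libraries were male by Ddx3y. Whether the 2 mice of a group came from separate litters is not given in the sources used here.

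Arterial ECs line the vessels that carry blood at high pressure and pulsatile flow. Their identity is set by VEGF and Notch signalling with SoxF transcription factors, while the nuclear receptor COUP-TFII (Nr2f2) imposes venous identity and represses Notch. Larger arteries are wrapped in elastic laminae, whose core protein elastin is also made by arterial ECs, and connexins such as Gja4 and Gja5 couple arterial ECs to one another. Alk1 is a BMP receptor of ECs whose loss in humans causes hereditary haemorrhagic telangiectasia, in which arteries connect to veins directly.

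The label was first checked on genes outside the rule. The classes were drawn from the counts of the same cells, so these class differences are a description. Fitted differences and the numbers of genes past fixed limits are given for their size, and their p-values are no test of the classes. Gja5, the connexin 40 gene of arterial ECs, stood at 193 and 235 CPM in telogen S1 and S2 and at 185 and 97.3 in anagen S1 and S2. Its venous level was at 0 in 3 of the 4 WT libraries and 0.252 in anagen S2, and the capillary classes held between 1.57 and 11.6. Hey2, a Notch effector that holds the arterial fate, was at 46.2 and 42.0 in telogen and 37.2 and 33.6 in anagen, against at most 4.97 in any library of the other 3 blood classes. Sox17, the SoxF factor upstream of Notch in arteries, had a mean level of 535 ± 68.2 (SD, n = 4 WT libraries) in arterial members, 91.4 ± 3.65 in venous, 269 ± 41.6 in Cap-Kdr and 237 ± 28.6 in Cap-Rgcc members. Nr2f2 ran the other way, at 10.5 ± 6.37 in arterial and 206 ± 43.1 in venous members. Every WT library had the arterial level above the other 3 blood classes for Gja5, Hey2 and Sox17 and below them for Nr2f2. Not every listed marker went this way. Unc5b, listed as arterial, had a mean of 26.6 CPM in arterial, 32.8 in Cap-Kdr and 25.6 in Cap-Rgcc members. Vcam1 and Icam1, listed as venous, had means of 253 and 718 in arterial and 144 and 706 in venous members.

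The stretch of 250 bases upstream of the annotated start is shown for 4 genes that mark these cells or divide them below: Gja5 and Hey2, and the rule genes Gkn3 and Cytl1. The sequences are from RefSeq on GRCm38.p6, which shares the mm10 coordinates, and run 5′ to 3′ on the strand of the gene. Gja5 lies at chr3:97032152-97032401 on the plus strand, Hey2 at chr10:30842784-30843033 on the minus strand, Gkn3 at chr6:87388936-87389185 on the minus strand and Cytl1 at chr5:37735269-37735518 on the plus strand. Capitals mark matches to 2 motifs searched on both strands, which may overlap: TGGGAA or TTCCCA, the core bound by the Notch partner RBPJ, and GGAAG or CTTCC, the core bound by ETS factors such as Erg.
Gja5: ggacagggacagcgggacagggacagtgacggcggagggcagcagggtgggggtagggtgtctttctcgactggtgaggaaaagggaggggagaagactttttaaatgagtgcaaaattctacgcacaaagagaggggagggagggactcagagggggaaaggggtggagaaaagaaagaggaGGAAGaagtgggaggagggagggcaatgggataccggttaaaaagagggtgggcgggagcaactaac
Hey2: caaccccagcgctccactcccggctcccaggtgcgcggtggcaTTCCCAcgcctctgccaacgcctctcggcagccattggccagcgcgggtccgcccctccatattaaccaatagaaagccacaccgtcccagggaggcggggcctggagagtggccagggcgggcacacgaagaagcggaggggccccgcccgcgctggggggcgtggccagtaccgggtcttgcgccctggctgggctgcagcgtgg
Gkn3: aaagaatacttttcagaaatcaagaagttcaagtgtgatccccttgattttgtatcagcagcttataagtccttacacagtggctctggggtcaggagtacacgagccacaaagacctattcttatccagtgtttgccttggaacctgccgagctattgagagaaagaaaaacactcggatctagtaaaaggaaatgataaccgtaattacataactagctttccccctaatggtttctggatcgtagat
Cytl1: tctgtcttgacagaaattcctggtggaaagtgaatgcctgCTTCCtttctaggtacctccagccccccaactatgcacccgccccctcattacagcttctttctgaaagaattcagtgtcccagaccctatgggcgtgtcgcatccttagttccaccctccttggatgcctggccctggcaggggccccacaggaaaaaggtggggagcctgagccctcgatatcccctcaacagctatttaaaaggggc
Hey2 held 1 match to the RBPJ core, and Gja5 and Cytl1 held 1 match each to the ETS core. Among 32851 mouse promoters of this length, 21.6% held the RBPJ core and 64.1% the ETS core, so a match is common and is not a binding site by itself.

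Detection in single cells was compared after every cell was thinned to 1500 UMIs, which left out 38 of the arterial members of the WT libraries. Gja5 had a UMI in 17.0% of 1096 thinned arterial members (exact 95% interval 14.8 to 19.3%, unthinned 35.6% at a median of 4654 UMIs). It was found in 0 of 960 venous members, which allows a share of cells with a UMI of up to 0.312% (3 counts), in 0.914% of Cap-Kdr and in 0.941% of Cap-Rgcc members. Immune cells of the same libraries, which should lack the gene and had a median of 11744 UMIs, gave 0 of 2570. Sox17 was found in 47.4% of arterial members and in 0.117% of those immune cells, and Eln in 67.0% and 0.428%. Mgp was found in 67.0% of arterial members against 2.06% of immune cells, 30.4% of venous, 2.86% of Cap-Kdr and 11.1% of Cap-Rgcc members, so its share in Cap-Kdr was near the immune background. These intervals cover counting error only.

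**Figure D1:**
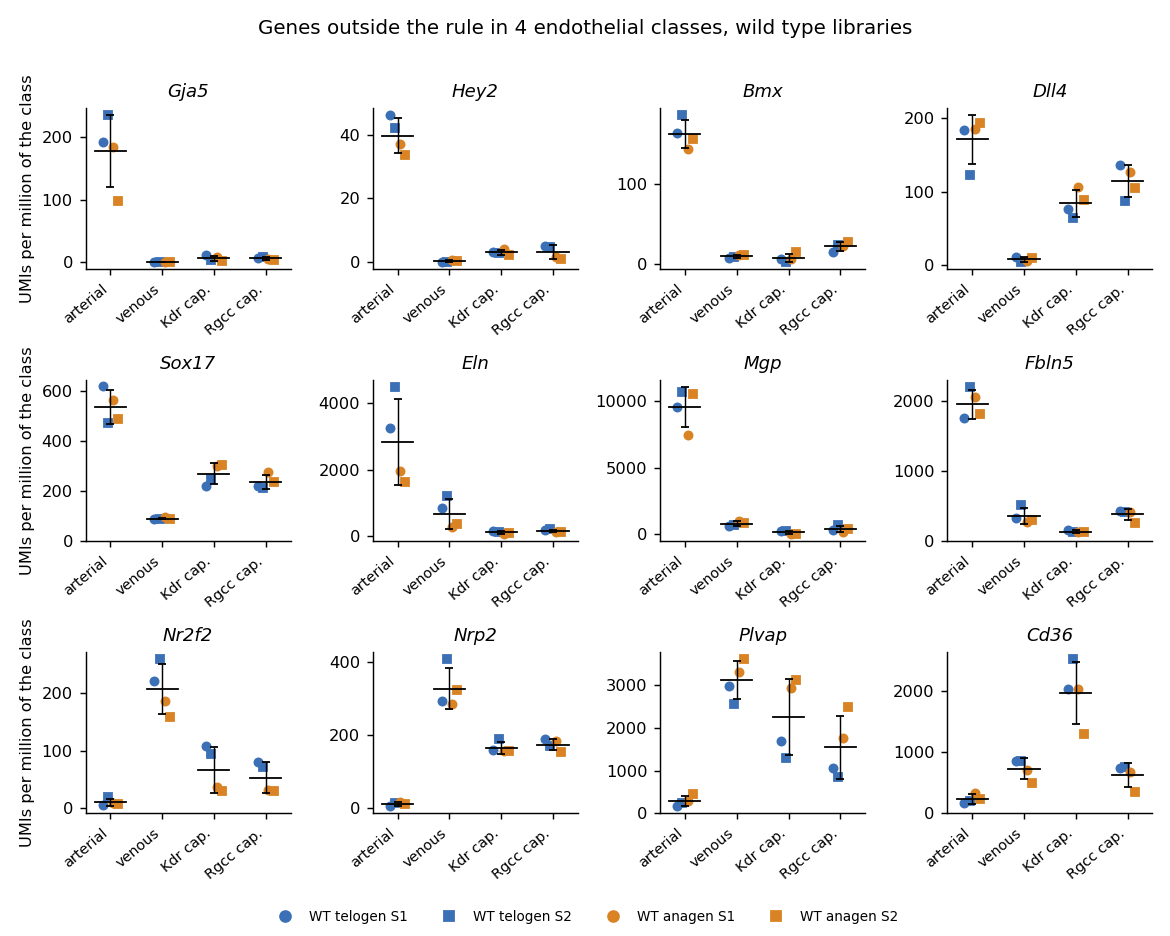
Level of 12 genes outside the rule in the arterial, venous, Cap-Kdr and Cap-Rgcc classes, in CPM, UMIs of the gene for every 1000000 UMIs of the class (linear axes). Points are the 4 WT libraries, and bars are the mean ± SD. Gja5, Hey2, Bmx, Dll4, Sox17, Eln, Mgp and Fbln5 are highest in arterial members in every library, and Nr2f2, Nrp2, Plvap and Cd36 are lowest there. Gja5 is at 0 in 3 of the 4 venous samples.

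Mgp and Eln, genes of the arterial wall matrix, had higher levels in these members than in the other blood classes. Mgp, matrix Gla protein, which keeps the arterial wall from calcifying and binds BMPs, was at 9575 and 10632 CPM in telogen and 7430 and 10542 in anagen. It was 3.50 ± 0.15 higher than in venous, 6.64 ± 0.49 higher than in Cap-Kdr and 4.62 ± 0.21 higher than in Cap-Rgcc members on the log2 scale (estimate ± SE, fit with the library as a block, 4 WT libraries). Eln, the elastin gene, was 2.15 ± 0.13, 4.73 ± 0.14 and 3.97 ± 0.13 higher in the same order. Arterial Eln was 3233 and 4474 CPM in telogen and 1968 and 1629.5 in anagen, so its stages did not overlap.

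Of 16 listed genes of elastic fibres and arterial matrix, 13 were measured against venous members, and 9 were higher and 2 lower in arterial members (median log2 difference 1.87). Over all genes 32.1% of 8646 were past the same limits, which are an adjusted p below 0.05 together with more than a 1.3-fold difference. The list was higher in 10 of 12 measured members against Cap-Kdr (3.18) and in 10 of 14 against Cap-Rgcc, where 3 were lower (2.08), with 30.7% and 39.4% of all genes past the limits. Of the basement membrane genes, 10 of 14 were lower and 4 higher against Cap-Kdr, and 10 of 14 lower and 2 higher against Cap-Rgcc. Col15a1, a collagen of capillary basement membranes, differed from venous, Cap-Kdr and Cap-Rgcc members by −4.5 ± 0.19, −5.11 ± 0.20 and −4.45 ± 0.18. Nothing is read from these counts, since the rule drew the classes.

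Signalling genes differed between the classes as well. Of 18 listed Notch pathway genes, 16 were measured in each contrast, and 10 were higher than in venous, 9 than in Cap-Kdr and 9 than in Cap-Rgcc members, with 1, 0 and 2 lower. Jag1, a Notch ligand, was 2.81 ± 0.15, 3.47 ± 0.13 and 1.85 ± 0.10 higher in that order. Dll4, the ligand of sprouting and arterial ECs, was 4.33 ± 0.16 higher than in venous members but 1.07 ± 0.10 and 0.45 ± 0.10 higher than in the capillary classes. Of the ALK1 and BMP pathway, 9 of 17 measured genes were higher and 4 lower than in venous members. Tmem100, a target of Alk1 in arterial ECs, was 4.0 ± 0.15, 4.08 ± 0.25 and 2.21 ± 0.21 higher. Acvrl1 itself had a mean level of 264 ± 15.1 CPM in arterial members, 106 ± 16.4 in venous, 148 ± 22.5 in Cap-Kdr and 179 ± 22.4 in Cap-Rgcc members, and no arterial library overlapped one of another class. Among genes lower in arterial members, Aplnr, the apelin receptor, differed from the venous, Cap-Kdr and Cap-Rgcc classes by −5.54 ± 0.20, −5.81 ± 0.20 and −4.07 ± 0.26, and Plvap, which builds the diaphragms of fenestrae, by −3.49 ± 0.13, −2.86 ± 0.14 and −2.5 ± 0.14. Kdr, the main VEGF receptor, differed by −1.75 ± 0.13, −3.58 ± 0.14 and −2.41 ± 0.14.

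The members were not uniform, and the arterial score described part of the range. Of the 1351 members, 136 (10.1%) had a UMI of 2 set genes, 503 (37.2%) of 3, 380 (28.1%) of 4 and 332 (24.6%) of all 5. Members with 2 set genes had a median of 3067 UMIs and members with 5 had 5451, so the score also follows depth. The 521 members whose arterial score was 1 above the next set had 82.4 CPM of Gja5, and the 830 members further above had 186. The 518 cells just outside, which tied with another set at an arterial score of at least 2, had 39.1, and the 3187 cells with an arterial score of 1 had 1.0. Mgp followed the same order, at 11216, 5688, 2107 and 346 CPM from the highest to the lowest of these 4 sets, and Nr2f2 the opposite order, at 7.11, 25.0, 69.1 and 220. These levels pool the cells of the 6 libraries, whose members were spread differently over the arterial scores. A score of 2 was found in 4 of 111 and 5 of 117 members in telogen. It was found in 21 of 309 and 55 of 597 in anagen, and in 16 of 93 and 35 of 124 in the libraries labelled KO.

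The rule genes themselves were unequal between members. Gkn3, a secreted gastrokine of arteries, and Cytl1, a small secreted cytokine-like protein, each had a UMI in part of the members, while Stmn2 and Sema3g had one in most. At 1500 UMIs per cell, Gkn3 and Cytl1 were found together in 26.1% and 24.1% of members in telogen S1 and S2, 19.1% and 27.7% in anagen, and 13.6% and 12.9% in the libraries labelled KO. Cytl1 without Gkn3 was found in 18.0% and 24.1% in telogen, 17.2% and 7.42% in anagen, and 43.2% and 54.3% in the libraries labelled KO. Gkn3 without Cytl1 was found in 10.8% and 17.2%, 14.2% and 16.6%, and 2.27% and 1.72% in the same order. Neither was found in 31.0% to 49.5% of members. The libraries labelled KO thus held the 2 highest shares with Cytl1 only and the 2 lowest with Gkn3 only.

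The level of Gkn3 was 550 and 671 TMM-scaled CPM in telogen, 554 and 1104 in anagen, and 102 and 145 in the libraries labelled KO. Cytl1 was at 1584 and 1812 in telogen, 1264 and 1009 in anagen and 2398 and 2100.5 in the libraries labelled KO. Stmn2, a microtubule regulator, was at 1105 and 1424, 1409 and 1344, and 622 and 474, and Gja4, the connexin 37 gene, at 876 and 795, 833 and 1163, and 534 and 524. Sema3g, a semaphorin of arterial ECs, ranged from 444 to 616 over all 6 libraries. Gkn3, Stmn2 and Gja4 were thus lowest in the libraries labelled KO and Cytl1 was highest there, with no overlap with either WT stage. No test was made of these genes, because they chose the members.

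Members with and without a UMI of Cytl1 were compared within each of the 4 WT libraries, with the library as a block, to describe which other genes differ between them. Cytl1 is a rule gene, and members without it had to qualify on the other 4, so the values of this split, and of those by the other rule genes, are a description and no p is given. There were 62 members with and 49 without in telogen S1, 70 and 47 in telogen S2, 128 and 181 in anagen S1, and 260 and 337 in anagen S2. The median depths with and without were 6060 and 5249, 5400 and 4632, 5233 and 5363, and 4337 and 3762 UMIs. In the edgeR fit 528 genes lay past the limits as higher and 455 as lower in members with Cytl1, which is 15.2% of 6447 genes. After thinning each cell to 1500 UMIs before the split, 279 genes lay past the limits, and without anagen S2 the count was 568.

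Genes of the arterial wall matrix had higher levels in members with Cytl1. Of 11 measured genes of elastic fibres and arterial matrix, 9 were higher and none lower (median log2 difference 1.21), where 8.19% of all genes were higher by the same limits. Mgp was at 15067, 15127, 15356 and 19441 CPM with Cytl1 in the order telogen S1, telogen S2, anagen S1 and anagen S2, and at 1936, 2763, 1422 and 2881 without. This was a log2 difference of 3.02 ± 0.11 (SE), and members with Cytl1 were higher in 4 of 4 libraries. Bgn, the small proteoglycan biglycan, was at 913, 1059, 1311 and 1032 with and 94.2, 92.5, 112 and 63.9 without (3.77 ± 0.12). Eln differed by 2.41 ± 0.12 and Lox, which cross-links elastin, by 2.53 ± 0.15. Fbln5, an elastin organizer, differed by 0.35 ± 0.07, below the fold limit.

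Of 12 measured NF-kB cytokine and adhesion genes, 11 were higher with Cytl1 and none lower (median 1.47). Cxcl2, a neutrophil chemokine, differed by 3.35 ± 0.16 and Vcam1, a leukocyte adhesion molecule, by 2.54 ± 0.25. Ptgis, the prostacyclin synthase that makes a vasodilator, was at 110, 119, 118 and 85.1 CPM with Cytl1 and at 0, 3.85, 2.88 and 1.44 without, a difference of 5.68 ± 0.31. Of 16 measured flow-responsive and vasoactive genes 7 were higher and 1 lower with Cytl1 (median 0.22), the lower one being the endothelin receptor Ednrb. Slc4a4, a bicarbonate transporter, was 4.73 ± 0.42 higher. Bmp4 was 2.53 ± 0.22 and Hey2 1.64 ± 0.21 higher, while Nos3, the endothelial nitric oxide synthase, differed by 0.67 ± 0.12. The 4 measured fibroblast markers were higher in the fit (median 2.0). Col1a1, Col1a2 and Col3a1 had their largest levels in anagen S2, where Col1a1 was at 155 with and 32.3 without. Mfap5 was largest in telogen S1, at 63.1 with and 9.75 without. The direction of these markers was not the same in every library: Col1a1 was lower with Cytl1 in telogen S1 and in anagen S1 (3.80 against 6.73), and Col3a1 in telogen S2 (28.6 against 38.5). Of 7 smooth muscle and pericyte markers 3 were lower (median −1.13). The part of these markers in the differences was not tested.

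Other genes had higher levels in members without Cytl1. Slc6a6, the taurine transporter, was at 1182, 979, 912 and 1487 CPM without Cytl1 and at 58.4, 154, 93.9 and 198 with it, in the order telogen S1, telogen S2, anagen S1 and anagen S2 (−3.05 ± 0.15). Cxcl12, the CXCR4 ligand, was at 448, 713, 1226 and 1108 without and 72.4, 92.5, 198 and 142 with (−2.68 ± 0.10). Cd36, a fatty acid receptor of capillaries, differed by −2.44 ± 0.14 and Kdr by −1.68 ± 0.21. Nog, the BMP antagonist noggin, differed by −4.16 ± 0.51, Ckb, a creatine kinase, by −3.58 ± 0.18, Vcan, a large proteoglycan, by −3.40 ± 0.36 and Ednrb, an endothelin receptor, by −3.21 ± 0.23. Of 12 measured basement membrane genes, 7 were lower with Cytl1 and 1 higher, and of 8 capillary markers 5 were lower and 1 higher, where 7.06% of all genes were lower. Col4a1 and Col4a2, the chains of the common type IV collagen, differed by −1.25 ± 0.18 and −1.72 ± 0.22.

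Of 20 arterial markers outside the rule, 7 were higher with Cytl1 and 7 lower, and of 14 measured Notch genes 3 were higher and 3 lower. Gja5 was 0.93 ± 0.17 higher with Cytl1, yet it was at 229 with and 247 without in telogen S2, so the direction held in 3 of 4 libraries. Bmx, an arterial kinase, was 1.0 ± 0.15 higher. Sox17, Alpl and Nebl, listed as arterial, differed by −0.77 ± 0.11, −2.24 ± 0.19 and −2.72 ± 0.16 in members with Cytl1. Efnb2, the arterial ephrin, differed by −0.20 ± 0.11 and Dll4 by 0.19 ± 0.13, neither past the limits.

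**Figure D2:**
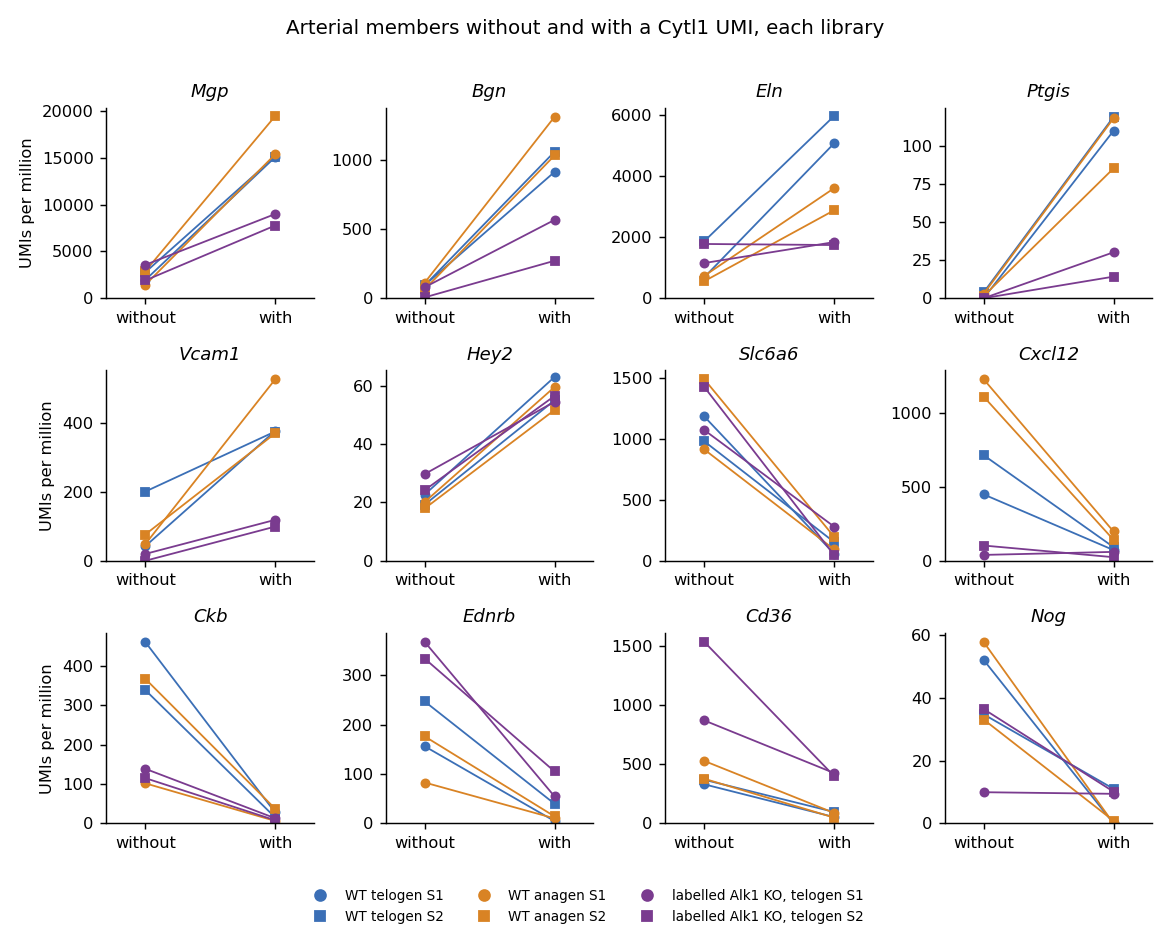
Level of 12 genes in arterial members without and with a Cytl1 UMI, in CPM on linear axes that start at 0. Each line joins the 2 values of 1 library. From Mgp to Hey2 the genes are higher with Cytl1 in every WT library and from Slc6a6 to Nog they are lower. In the libraries labelled KO, Eln is 1741 with and 1776 without in S2, and Cxcl12 is 60.2 with and 39.7 without in S1.

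In the same description by Gkn3 551 genes were higher and 446 lower, 15.5% of 6441. Members with Gkn3 were deeper in each WT library, at 6343 against 4972, 5408 against 4453, 6138 against 4722 and 4521 against 3600 median UMIs. Mgp was 2.17 higher on the log2 scale with Gkn3, Eln 1.5, Bgn 2.69 and Gja5 1.24, and Slc6a6, Cxcl12 and Ckb differed by −3.17, −2.61 and −4.38. Elastic fibre genes were higher in 7 of 11 and lower in none, and 36 of 77 cytosolic ribosomal protein genes were higher with Gkn3 but none with Cytl1. The difference between the splits was not tested. After thinning to 1500 UMIs before the split 191 genes were past the limits, and without anagen S2 497. For Sema3g, Stmn2 and Gja4 the counts were 58 (1.03%), 9 (0.178%) and 10 (0.199%) genes. Few members lacked a UMI of these genes. In telogen S1, telogen S2, anagen S1 and anagen S2 they were 10, 11, 38 and 100 for Sema3g. They were 5, 3, 9 and 38 for Stmn2 and 8, 11, 29 and 43 for Gja4. These counts of genes are therefore not comparable with those of Cytl1 and Gkn3.

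The libraries labelled KO were not part of these fits, and their members gave the same comparison side by side. They held 72 members with and 21 without Cytl1 in S1, and 94 with and 30 without in S2. Of the 528 genes higher with Cytl1 in the WT fit, 277 (52.5%) were higher with Cytl1 in both, against 25.7% of all genes tested. Of the 455 lower genes, 268 (58.9%) were lower in both, against 29.0%. The same rule, with Cytl1 in it, chose these members, so the shares are a description and no replication. Bgn was at 566 with and 79.4 without in S1 and 271 and 6.06 in S2, and Slc6a6 at 280 with and 1071 without in S1 and 48.5 and 1424 in S2. Cxcl2 was at 184 with and 496 without in S1 but 339 and 0 in S2, so its direction differed between these 2 libraries.

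Arterial members labelled KO were then compared with arterial members of WT telogen, which is the contrast the design gives for Alk1. Of 7156 genes tested, 410 (5.73%) were higher and 447 (6.25%) lower in the libraries labelled KO, 12.0% together, and the 2 libraries of each group did not overlap for 56.2% of genes. The median of all tested genes was 0.03 on the log2 scale. Among listed genes, the lower ones included 6 of 11 of elastic fibres and the higher ones 3 of 11 of the circadian clock. The list counts of this contrast stand beside the shares of 5.73% higher and 6.25% lower over all genes. List counts of fits that leave out a library are given without the share of all genes called there, so nothing is read from them about a list. DESeq2 called 339 genes and edgeR without a filter on low counts 285. Without labelled KO S1 edgeR called 1289. Of the genes named below, Gja5, Emcn, Ptgis, Pgf, Mgll, Lfng, Nrp1, Per1, Per3, Bst2, Ifitm3, Pgam1, Pgk1 and Mylk did not pass without the filter, and Nrp1, Per1, Pgam1, Pgk1 and Mylk did not pass in DESeq2. DESeq2 gave no adjusted p for Lfng, Per3, Slc15a2, Adamdec1 and Myh11.

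Of 11 measured genes of elastic fibres and arterial matrix 6 were lower and none higher (median log2 fold change −0.91), and all 11 were below 0. Col8a1, a short-chain collagen of the vessel wall, was at 214 and 235 TMM-scaled CPM in telogen and 44.8 and 54.3 in the libraries labelled KO (−2.18 ± 0.21, SE, adjusted p = 0.00031, edgeR). Htra1, a protease that cuts matrix and TGF-β proteins, was at 575 and 687 against 198 and 238 (−1.54 ± 0.20, adjusted p = 0.001). Fbln2, a fibulin of elastic fibres, was at 762 and 1010 against 341 and 299 (−1.48 ± 0.20). The groups did not overlap for any of these 3 genes, and the anagen libraries, at 266 and 393, 718 and 700, and 1090 and 842, lay nearer to telogen. Eln was at 3199 and 4363.5 against 1747 and 1694 (−1.14 ± 0.20, adjusted p = 0.00641), but at 2029 and 1672 in anagen, and its adjusted p was 0.0523 without telogen S2. Mgp was at 9474 and 10370 against 8219 and 6096 (−0.48 ± 0.21, adjusted p = 0.171), which did not pass. Of the list, 4 genes were lower without telogen S2 and 9 without labelled KO S1.

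The same contrast is described in the 2 sets of members split by Cytl1, with no p, because Cytl1 chose the members. Within members with a Cytl1 UMI, where 661 genes lay past the limits in all, 9 of 11 measured elastic fibre genes were lower in the libraries labelled KO (median −1.13), and within members without one, where 239 did, 1 of 9 was lower (median −0.15), with 51 such members in the libraries labelled KO. Eln was at 5067 and 5964 CPM in telogen and 1836 and 1741 in the libraries labelled KO in members with Cytl1, and at 682 and 1865 against 1151 and 1776 in members without, where its log2 fold change was 0.23. The difference between the 2 sets of members was not tested. In members without a UMI of Rgs5, Acta2, Tagln or Myh11, 5 of 10 elastic fibre genes were lower (median −0.80).

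Of 11 measured basement membrane genes 5 were lower and none higher (median −0.47). Sparc, a matrix protein that binds type IV collagen, was at 2266 and 2689 in telogen, 2253 and 2350 in anagen, and 545 and 554 in the libraries labelled KO (−2.18 ± 0.19, adjusted p = 0.000253, edgeR). Col18a1, the source of endostatin, was at 245 and 361 in telogen, 365 and 363 in anagen, and 51.2 and 35.2 in the libraries labelled KO (−2.82 ± 0.27). Col4a1 was at 268 and 316 against 92.8 and 71.9 (−1.83 ± 0.21). For these 3 genes the libraries labelled KO lay below all 4 WT libraries. Laminin and nidogen genes did not pass: Lama4 differed by −0.44 ± 0.34 and Nid1 by −0.36 ± 0.30.

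Arterial markers outside the rule were lower in 7 of 20 and higher in none (median −0.39), and in 4 without telogen S2. Besides Htra1 and Eln, Vegfc, the lymphatic growth factor, was at 262 and 246 in telogen and 88.0 and 123 in the libraries labelled KO (−1.27 ± 0.20, adjusted p = 0.0039, edgeR). Gja5 was at 191 and 230 against 114 and 103 (−0.97 ± 0.19, adjusted p = 0.0105), while anagen S1 was at 191 and anagen S2 at 99.8, so the WT stages spanned the levels labelled KO. With equal numbers of members thinned to 1500 UMIs, Gja5 differed by −0.36 and did not pass. Sox17 was at 612 and 459 against 557 and 735 (0.26 ± 0.21), Dll4 at 181 and 119 against 128 and 201 (0.13 ± 0.26) and Efnb2 at 235 and 242 against 248 and 230 (−0.00 ± 0.17). These 3 did not pass the test and their groups overlapped.

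Of 17 measured genes of the ALK1 and BMP pathway 1 was higher and none lower (median −0.16), but 3 were lower without telogen S2 and 5 without labelled KO S1. Over all genes, 5.73% were higher and 6.25% lower in the fit with no library left out. The median of the list was −0.31 without telogen S1 and −0.41 without labelled KO S1. Smad1, which carries the BMP signal to the nucleus, was at 51.1 and 53.3 in telogen, 33.8 and 51.9 in anagen, and 139 and 141 in the libraries labelled KO (1.41 ± 0.21, adjusted p = 0.00224, edgeR). With equal numbers of members thinned to 1500 UMIs Smad1 differed by 0.97 (adjusted p = 0.12) and did not pass. In members with a Cytl1 UMI Smad1 differed by 0.90, not past the limits. There 0 of 15 measured genes of the list were higher and 1 lower, and in members without one 1 of 12 was higher and 1 lower. The BMP targets Id1 and Id3 were at 794 and 618 against 518 and 386, and at 1074 and 828 against 750 and 502, which gave −0.65 ± 0.21 (adjusted p = 0.0758) and −0.61 ± 0.23 (adjusted p = 0.115). Their groups did not overlap, but neither passed. The co-receptor Eng differed by −0.34 ± 0.21, the receptor Bmpr2 by 0.24 ± 0.17, the inhibitory Smad7 by −0.34 ± 0.18 and Tmem100 by −0.39 ± 0.25, and none of these passed. Of 14 Notch genes 1 passed: Lfng, a sugar transferase that tunes Notch receptors, was at 14.8 and 8.20 against 56.0 and 30.8 (1.88 ± 0.46, adjusted p = 0.0257), with an adjusted p of 0.058 without telogen S2 and 0.0739 without labelled KO S1. Without labelled KO S2 4 of 16 Notch genes were higher and 1 lower, and without telogen S2 or labelled KO S1 none was higher and 1 lower.

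Chemokine, adhesion and vasoactive genes moved both ways. Of 12 NF-kB cytokine and adhesion genes 4 were lower and none higher (median −0.53). The median was −0.84 without telogen S2 and −0.86 without labelled KO S1. It was −0.75 in members with a Cytl1 UMI and −0.11 in members without one. Vcam1 was at 234 and 303 in telogen and 104 and 71.9 in the libraries labelled KO (−1.62 ± 0.23, adjusted p = 0.00182, edgeR), and Cxcl2 at 690 and 526 against 237 and 246 (−1.34 ± 0.20). Cxcl2 differed by −0.53 and did not pass with equal numbers of members thinned to 1500 UMIs (adjusted p = 0.31), nor under stricter cell limits. In members without a Cytl1 UMI it differed by 0.61, at 117 and 173 CPM in telogen against 496 and 0 in the libraries labelled KO. In members with one Cxcl2 was at 1114 and 749 against 184 and 339. Cxcl12 was at 227 and 310 in telogen, 807 and 678 in anagen, and 57.6 and 42.5 in the libraries labelled KO (−2.43 ± 0.24), so the 3 groups were apart. In members with a Cytl1 UMI, where its level was lower in every WT library, Cxcl12 was at 72.4 and 92.5 in telogen against 60.2 and 24.2 in the libraries labelled KO (−0.96, not past the limits). In members without one Cxcl12 was at 448 and 713 in telogen against 39.7 and 103 in the libraries labelled KO. Ptgis was at 63.2 and 75.2 against 25.6 and 10.3 (−1.96 ± 0.38). Ramp2, which makes the adrenomedullin receptor, was at 926 and 1156 against 2268 and 2161 (1.08 ± 0.19), with an adjusted p of 0.0897 without telogen S1. Klf2, the main flow-responsive factor, was at 2801 and 2297 against 2017 and 2368 (−0.22 ± 0.19) and did not pass.

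Of 8 measured capillary markers 1 was higher and 2, Cxcl12 and Mgll, were lower (median 0.07). In members with a Cytl1 UMI none of 8 capillary markers lay past the limits as lower, and in members without one 2 of 8 did. Mgll did not pass with equal numbers of members thinned to 1500 UMIs (adjusted p = 0.0776). Of 8 VEGF and angiopoietin genes 2 were higher and 2 lower. Without labelled KO S1 2 capillary markers were higher, and in the VEGF list 1 gene was higher without telogen S1, telogen S2 or labelled KO S1 and 1 was lower without telogen S2. Cd36 was at 168 and 191 in telogen, 350 and 232 in anagen, and 504 and 664 in the libraries labelled KO (1.69 ± 0.20, adjusted p = 0.000796, edgeR). Emcn, endomucin, a sialomucin of venous and capillary ECs, was at 79.3 and 86.1 against 318 and 166 (1.54 ± 0.29). Of the VEGF list Vegfc and Nrp1 (−0.79 ± 0.20) were the lower genes. Nrp1 did not pass without telogen S2 (adjusted p = 0.0543), without labelled KO S1 (0.0672) or under stricter cell limits (0.0772), and neither gene passed with equal numbers of members thinned to 1500 UMIs. Pgf, placental growth factor, was at 26.9 and 6.83 against 73.6 and 125 (2.54 ± 0.46). Pfkfb3, which drives glycolysis in ECs, was at 33.6 and 30.1 against 134 and 114 (1.95 ± 0.24), and Slc2a1, the GLUT1 glucose transporter, at 40.3 and 28.7 against 122 and 85.1 (1.57 ± 0.29). Of 16 measured glycolysis genes 2 were higher and 2 lower (4 without labelled KO S1, 1 without telogen S1 and 1 without labelled KO S2). The lower ones were the enzymes Pgk1 (−0.83 ± 0.22) and Pgam1 (−0.98 ± 0.21). Pgk1 was not past the test without telogen S2 (adjusted p = 0.0585) or without labelled KO S2 (0.107), and Pgam1 not without telogen S1 (0.0698). With equal numbers of members thinned to 1500 UMIs neither passed.

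Circadian clock genes rose in 3 of 11 measured, none fell, and the median was 0.93. The median was 0.57 without telogen S2, 1.05 in members with a Cytl1 UMI and 0.36 in members without one. Tef, a PAR bZIP factor of the clock output, was at 20.2 and 17.8 in telogen, 27.1 and 28.1 in anagen, and 88.0 and 101 in the libraries labelled KO (2.30 ± 0.28, adjusted p = 0.000888, edgeR). Per1 was at 24.2 and 35.5 against 78.4 and 68.9 (1.29 ± 0.29) and Per3 at 8.07 and 9.57 against 25.6 and 38.1 (1.84 ± 0.44). Per1 did not pass without telogen S1 (adjusted p = 0.0998), and Per3 not without telogen S1 (0.101), telogen S2 (0.0519) or labelled KO S2 (0.123). Dbp, another output gene, was not among the genes tested here. Arntl, the partner of Clock, differed by −0.19 ± 0.46. Fkbp5, a chaperone induced by glucocorticoids, was at 4.03 and 19.1 in telogen, 5.07 and 7.52 in anagen, and 224 and 173 in the libraries labelled KO (4.08 ± 0.40). The hour at which the mice were taken is not given in the sources used here, and its part in these genes was not tested.

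Cytosolic ribosomal protein genes were higher in 16 of 77 and lower in 1 (median 0.36), and oxidative phosphorylation genes were lower in 18 of 84 and higher in 2 (median −0.33). Without labelled KO S2 46 ribosomal protein genes were higher, and 8 oxidative phosphorylation genes were lower without telogen S1 and 8 without telogen S2. Rps28 was at 637 and 775 in telogen, 2050 and 1282 in anagen, and 2695 and 2112 in the libraries labelled KO. Rps27 was at 76.6 and 50.6 against 813 and 552 and Rpl9 at 235 and 86.1 against 1013 and 951, which is uncertain, because reads of these genes can be shared with pseudogene copies and the mice differed in strain. Interferon-response genes were lower in 2 of 10, and in 4 of 12 without labelled KO S1: Bst2, tetherin, by −0.97 ± 0.19 and Ifitm3 by −0.69 ± 0.18, the latter not without telogen S1 (adjusted p = 0.172) or telogen S2 (0.19). Of 18 immediate-early and heat-shock genes 2 were lower and none higher, but none was lower without telogen S1, 4 without telogen S2, 8 without labelled KO S1, and 3 lower with 1 higher without labelled KO S2.

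**Figure D3:**
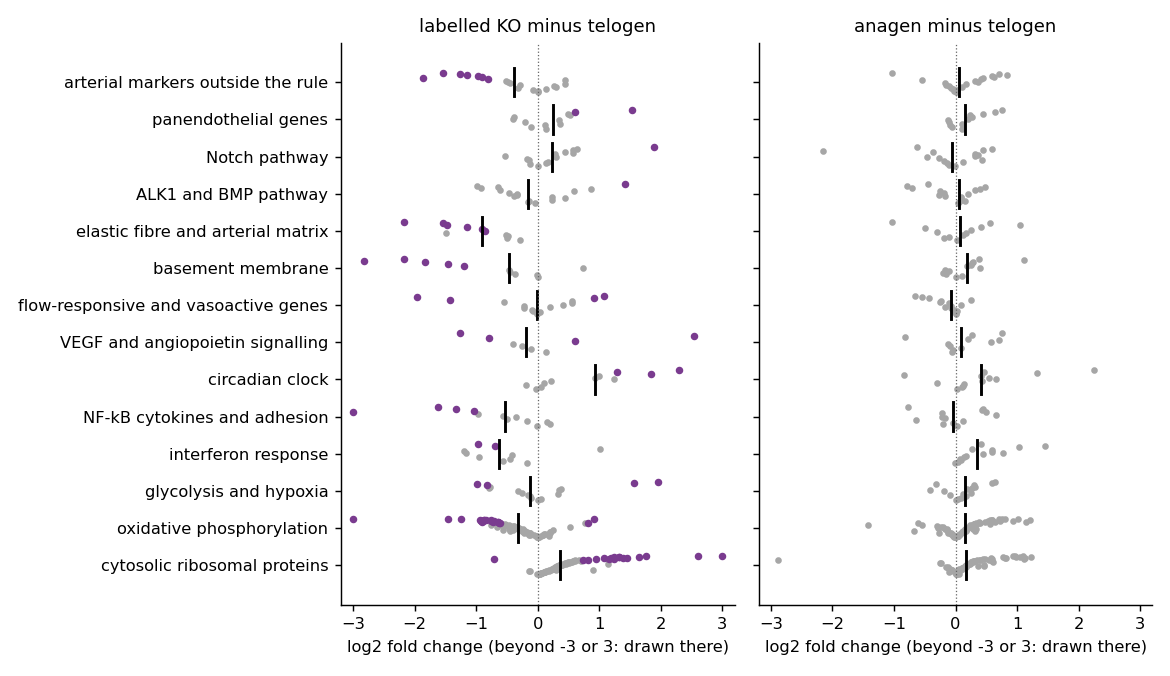
Log2 fold change of each measured gene in 14 lists, labelled KO minus telogen on the left and anagen minus telogen on the right. Each dot is a gene, purple dots passed the test, and the black bar is the list's median. On the left, elastic fibre genes have a median of −0.91 and clock genes of 0.93; on the right no gene passed.

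Among the genes with the largest change, some had no UMI in one group. Slc15a2, a peptide transporter, had 80 UMIs in the members labelled KO and 0 in telogen, at least 29.9-fold higher against a floor of 3 counts over the group, and Adamdec1, a metalloprotease, had 58 and 0, at least 21.7-fold higher. Ttll7, a tubulin glutamylase, was at 5.38 and 4.10 against 80.0 and 129 (4.41 ± 0.43, adjusted p = 0.000346, edgeR). Rgs5, a pericyte gene, had 231 UMIs in telogen and 0 in the members labelled KO, at least 68.7-fold lower. Myh11, smooth muscle myosin, had 45 UMIs against 1, which is 40.1-fold lower with a counting interval of 6.84 to 1619.5.

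Of 6 measured smooth muscle and pericyte markers 5 fell and Mylk was higher (median −4.06), but Mylk did not pass without telogen S1 (adjusted p = 0.0911), telogen S2 (0.244) or labelled KO S1 (0.111). Its summed level in arterial members was 868 and 863 CPM in telogen, 707 and 253 in anagen and 294 and 244 in the libraries labelled KO. Its most abundant gene was Acta2 in telogen and Mylk in the libraries labelled KO, and Cnn1 and Kcnj8 were at 0 in both groups, with Rgs5 at 0 in both libraries labelled KO and Myh11, Notch3 and Des in S2. A UMI of Rgs5, Acta2, Tagln or Myh11 was found in 23.4% and 35.0% of members in telogen, 26.9% and 21.1% in anagen, and 11.8% and 4.03% in the libraries labelled KO. In telogen S1 1 member held 44.7% of those UMIs. Immune markers summed to 84.2 and 196 in telogen, 39.9 and 16.2 in anagen and 14.2 and 12.1 in the libraries labelled KO, with Cd74 or Laptm5 the most abundant in each library. Fibroblast markers summed to 129 and 93.9, 66.7 and 672, and 17.4 and 19.7. Without the members that held a smooth muscle UMI 783 genes were called in place of 857. Among the genes named above Per3 lost its call there (1.55, adjusted p = 0.058). Basement membrane genes were lower in 5 of 11 without those members (median −0.62), and ALK1 and BMP genes in 3 of 15 (median −0.32) in place of 0 of 17. The part of the immune and fibroblast markers was not tested.

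**Figure D4:**
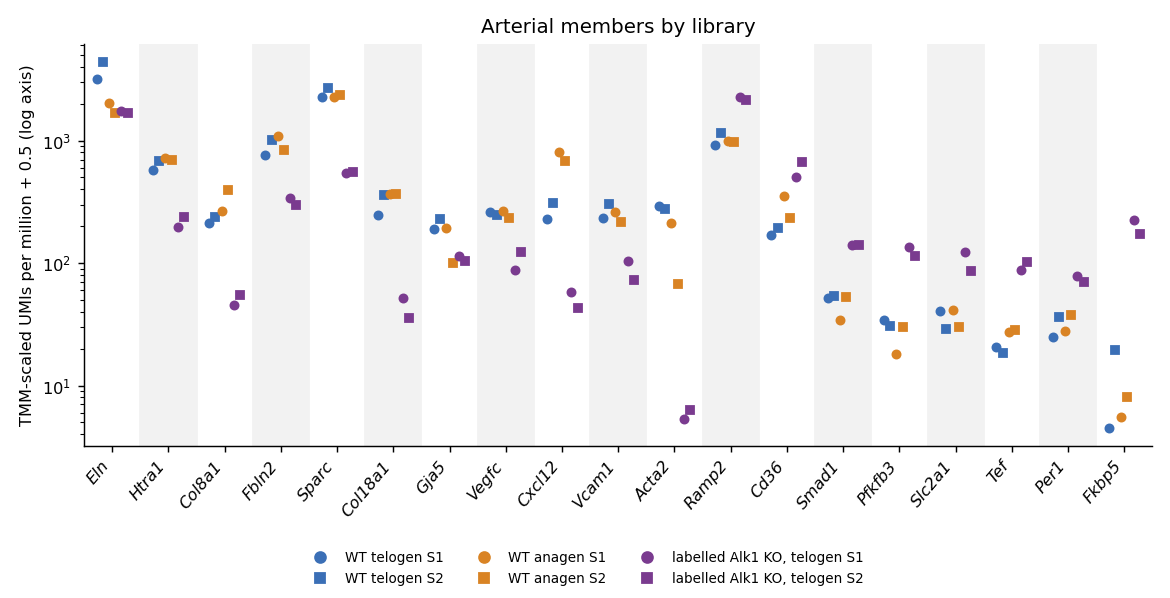
Level of 19 genes in arterial members of each library, as TMM-scaled CPM plus 0.5 on a log axis. Symbols are the 6 libraries. The libraries labelled KO lie below telogen from Eln to Acta2 and above it from Ramp2 to Fkbp5, and for Eln and Gja5 an anagen library lies at the level labelled KO.

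Anagen arterial members were compared with the same telogen libraries, to ask whether arterial expression shifts with hair growth. The stages also differ in age (PD 32 against PD 20) and in days since tamoxifen (15 against 3), which cannot be told apart from hair growth. Both anagen libraries were male, while telogen S1 was female. The quasi-likelihood test of edgeR called 0 of 8569 genes (0%), while 898 (10.5%) had an unadjusted p under 0.05, the groups did not overlap for 42.5% of genes, and DESeq2 called 36. Leaving out anagen S1 gave 212 calls, leaving out anagen S2 170 and leaving out telogen S2 4. The change differed from that in venous members for 0.0947% of genes and from that in Cap-Rgcc members for 0.265%. The genes named next were chosen after their values were seen. Cxcl12 was at 227 and 310 TMM-scaled CPM in telogen and 807 and 678 in anagen (1.46 ± 0.18, adjusted p = 0.0533, edgeR). Dbp, a clock output gene, was at 8.07 and 9.57 against 41.2 and 43.6 (2.25 ± 0.32, adjusted p = 0.0577), and 9.60 and 10.3 in the libraries labelled KO. Eln was lower in both anagen libraries (−1.04 ± 0.17, adjusted p = 0.096). The long non-coding RNA Neat1 differed by −1.10 ± 0.15 and Rps21 by 1.10 ± 0.14 (adjusted p = 0.0533 for both).

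Lists are given for this contrast by their signs and medians alone, beside a median of 0.00 over all genes. Interferon-response genes were above 0 in 13 of 14 (median 0.35), with Ifit3 at 5.38 and 9.57 against 24.8 and 17.0 and Rsad2 at 14.8 and 15.0 against 26.5 and 34.5. Clock genes were above 0 in 11 of 13 (median 0.41), capillary markers in 9 of 9 (0.69), cytosolic ribosomal protein genes in 66 of 77 (0.17) and oxidative phosphorylation genes in 61 of 86 (0.16). Arterial markers were above 0 in 12 of 20 (0.06) and Notch genes in 7 of 16 (−0.05). All 8 measured smooth muscle markers were below 0 (median −1.19), as were all 4 immune markers (−2.37). The comparisons with anagen and with the libraries labelled KO use the same 2 telogen libraries, so they are not independent.

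The share of arterial members among Pecam1+ Ptprc- cells was 9.43% in telogen S1 (111 of 1177, exact 95% interval 7.82 to 11.2%) and 9.45% in telogen S2. It was 9.40% in anagen S1 and 15.6% in anagen S2 (14.5 to 16.8%), and 7.67% and 9.17% in the libraries labelled KO. Anagen S2 alone stood above the other 5 libraries. The mean difference of anagen from telogen was 3.06 points (exact two-sided permutation p = 1, n = 2 against 2) and that of the libraries labelled KO was −1.02 points (exact p = 0.33, the smallest that 2 against 2 allows). Without anagen S2 the anagen difference was −0.04 points. The labelled KO difference was −0.27 points without labelled KO S1, −1.77 without labelled KO S2 and −3.46 with each cell thinned to 1500 UMIs before the rule. Among cells that met the rule of 1 of the 6 sets, arterial members made up 11.4% and 11.8% in telogen, 11.8% and 19.3% in anagen, and 10.2% and 12.4% in the libraries labelled KO, a labelled KO difference of −0.34 points. Among all kept cells, immune cells included, the share was 3.50% and 2.49% in telogen, 7.18% and 11.7% in anagen, and 5.43% and 6.33% in the libraries labelled KO, so by that denominator the labelled KO difference was 2.88 points and the anagen difference 6.44, both without overlap (exact p = 0.33). All shares follow a sort for tdTomato, which can set them.

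**Figure D5:**
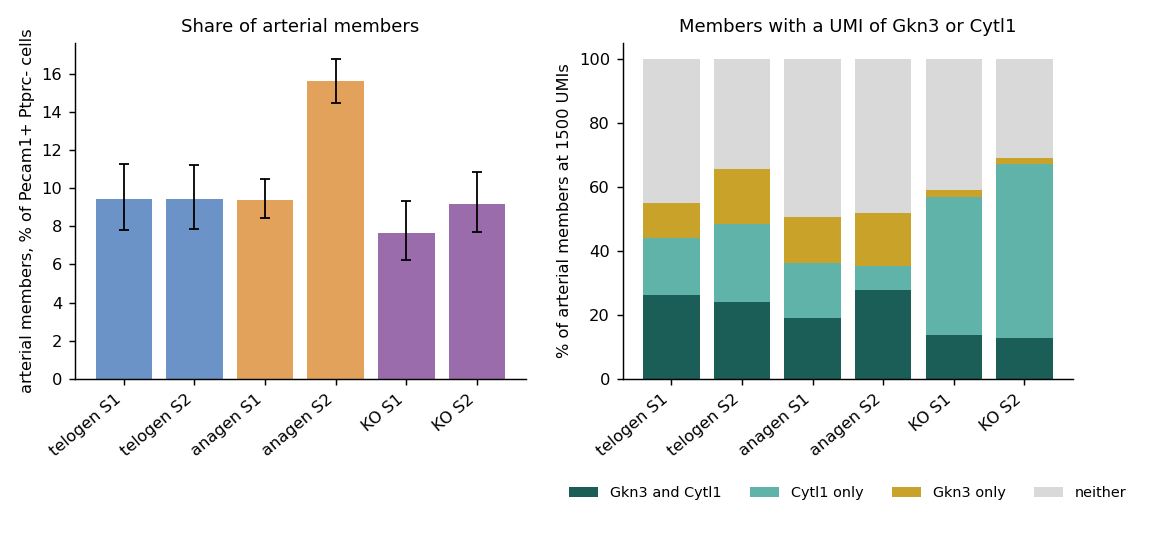
Left, share of arterial members among Pecam1+ Ptprc- cells in each library, in percent, with exact 95% intervals of counting; anagen S2 stands at 15.6% and the other 5 libraries between 7.67% and 9.45%. Right, share of arterial members, thinned to 1500 UMIs, with a UMI of Gkn3 and Cytl1, of either or of neither; Cytl1 only reaches 43.2% and 54.3% in the libraries labelled KO.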

How the data were processed

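The authors sorted tdTomato+ cells from dorsal skin, made Chromium 3′ libraries and counted UMIs with Cell Ranger 6.0.1 on mm10, per the labels and the submitters' processing notes. The deposited files hold whole-number UMI counts for 32285 genes per barcode, 1 library per mouse, neither normalized nor pooled; the authors' later steps in Seurat 4.0 and Harmony are not in them. Cells, members and classes were chosen here by the counting rule given above. The members and gene lists were chosen with earlier results of these data known.

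Counts were summed per library and class, filtered with filterByExpr, scaled by TMM and tested with the quasi-likelihood test of edgeR 4.0.16 (R 4.3.3) and p-values were adjusted by Benjamini-Hochberg across the whole table. A gene was called at an adjusted p below 0.05 with more than a 1.3-fold difference. Anagen and labelled KO were each fitted with the 2 telogen libraries. Classes and splits, which rest on the rule genes and are descriptions, were fitted on the 4 WT libraries with the library as a block, for 12 comparisons in all. The fits were first tested on simulated data. With 2 mice per group, p-values measure the spread between those mice.

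Named genes were the 10 largest rises and falls per comparison among called genes without overlap, up to 4 called genes per list and direction, and, as values, the rule genes. Genes named outside this rule are examples or were chosen after their values were seen. Of the 28 lists, those not given in the report are in the closing section. A gene at 0 in a group is bounded by a floor of 3 counts over the group. Doublets were scored per library with Scrublet in scanpy 1.11.5 and removed only as an alternative: the automatic threshold was used where it marked at least 0.5% of cells and otherwise the 5% with the highest score, which marked 6 members in anagen S1, 18 in anagen S2 and none elsewhere. Some called genes are not reported here. Intervals and floors cover counting error only. Alternatives were DESeq2 1.42.0, other scaling (RLE), filter, fold and cell limits, a score of at least 3, thinning, and leaving out each library. The fits on members with or without a Cytl1 UMI, or without a smooth muscle UMI, were added after seeing the data.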

Additional observations from a re-analysis of the deposited data

Results flagged for a closer look

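The anagen minus telogen change was set against that in 2 other classes by the interaction term of an edgeR fit, and differed for 9 of 9500 genes against venous members (0.0947%) and 27 of 10175 against Cap-Rgcc members (0.265%). Values are the arterial change minus the other change on the log2 scale, and levels are CPM of the class in the order telogen S1, telogen S2, anagen S1, anagen S2.

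Of 14 measured cell cycle genes 1, Top2a, passed against veins, and 13 were above 0 (median 1.94). The median over all genes is not given for this term, so nothing is read from these signs. Top2a (2.95) was at 21.7, 19.6, 27.9 and 23.2 in arterial members and at 50.2, 46.5, 6.87 and 7.29 in venous members, so the larger change was in the venous members. Stmn1 (2.34) was at 84.2, 77.1, 68.9 and 84.5 against 217, 186, 29.2 and 42.8, and Hmgb2 differed by 1.08 and Tppp3 by 1.92. Cd36 differed by 1.07 and Fbln2, a fibulin, by 0.94. Rasl11a differed by −1.5. The Ccl21a copy ENSMUSG00000094686 (−7.08), one of several near-identical copies and therefore uncertain, was at 139 in telogen S1 and at most 8.11 in the other arterial samples.

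Against Cap-Rgcc members, fibroblast and mural genes were among those that differed: Tnfaip6 (7.41), Col3a1 (3.28), Col1a2 (2.8), Acta2 (2.73), Aoc3 (2.72), Myl9 (2.04) and Rgs5 (1.97). Rgs5 was at 159, 160, 129 and 6.18 in arterial and at 1058, 936, 146 and 20.7 in Cap-Rgcc members, and Col3a1 at 25.8, 32.2, 21.9 and 122 against 1199, 1841, 214 and 415, so the larger levels were in the telogen Cap-Rgcc samples. Serping1 differed by 1.9, Cyp4b1 by 1.93, Cxcl2 by 1.71, Gucy1a1 by 1.62, Vegfa by 1.22 and Cd36 by 1.16. Ramp2 (−0.85) was at 936, 1185, 967 and 954 in arterial members and at 417, 509, 653 and 781 in Cap-Rgcc members. Cst3 differed by −0.71, Gimap5 by −1.41, H2-Ab1 by −2.56 and the Ccl21a copy ENSMUSG00000094686 by −9.01.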

How the results depend on the processing

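The named genes of all comparisons were recomputed under each alternative that could be fitted: 6574 values kept their direction and call, 502 kept the direction without passing and 5 reversed, leaving out named genes without an adjusted p in DESeq2. Reversed were Eln (0.23), Tmem252 (−0.10) and Cxcl2 (0.61) in labelled KO minus telogen among members without a Cytl1 UMI, and Cavin2 (0.26) and Tagln (−0.15) against Cap-Kdr members with all 6 libraries. The anagen share difference was −0.0372 points without anagen S2 and 6.15 without anagen S1, and the labelled KO share difference (−1.02) was −2.6 at a score of at least 3 and −2.26 under stricter cell limits. The cause was not tested.

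Counts of called genes moved as follows. For anagen minus telogen (0 called), DESeq2 gave 36, no filter 255, no likely doublets 9, equal numbers of members at 1500 UMIs 2, members without a smooth muscle UMI 12 and members with a Cytl1 UMI 6, and leaving out 1 library 0 to 212. For labelled KO minus telogen (857), DESeq2 gave 339, no filter 285, equal numbers at 1500 UMIs 343 and members without a Cytl1 UMI 239, and leaving out 1 library 618 to 1289. Thinning to 1500 UMIs gave 1209 calls against veins, 1363 against Cap-Kdr and 1744 against Cap-Rgcc, and leaving out 1 library 2145 to 2740, 2204 to 2714 and 2652 to 3435. The interaction with veins (9) gave 95 with no filter, 23 without likely doublets and 10 to 62 without 1 library; that with Cap-Rgcc (27) gave 247 with no filter, 5 at a score of at least 3 and 16 to 172. Thinning before the split gave 279 for Cytl1, 191 for Gkn3, 35 for Sema3g, 5 for Stmn2 and 34 for Gja4, and no filter 30 for Stmn2 and 31 for Gja4. Leaving out 1 library gave 568 to 1011, 497 to 1151, 19 to 64, 1 to 27 and 4 to 9 for these splits. Where an arm was left with 1 library, it was assumed to vary like the others.

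The numbers S1 and S2 are only names: the S1 minus S2 deviations correlated at −0.055, −0.00975 and −0.000823 between groups over 7370 genes, so no numbers pair the mice, and with the replicate number as a block 0 genes were called in anagen and 873 in the libraries labelled KO. Members with a score of 0 in every other set numbered 2 to 31 per library, and no gene test was run on them. RLE scaling called 0 and 834 genes. Shallow members limit low genes: 38 WT arterial members lay below 1500 UMIs.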

Other observations

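Some genes outside the lists marked arterial members against the other blood classes in all 4 WT libraries. Tox2, Kcne3 and Cabp1 were among the 10 largest differences from venous members, and Serpina1e, Krt18, Efna5 and F2rl1 among those from Cap-Kdr members; Serpina1e belongs to a family of near-identical copies and is uncertain. The classes were drawn from the same cells, so these are a description.

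Lymphatic markers outside the rule summed to 17.7 and 19.6 CPM in telogen, 12 and 13.9 in anagen, and 82.2 and 4.54 in the libraries labelled KO, with Prox1 at 37.9 in labelled KO S1. Schwann markers summed to between 0 and 4.74, and keratinocyte markers to between 7.91 and 20.8, with Krt10 the most abundant and Krt14 at 0 in every library. Of the perineurial list Itgb4, which arterial ECs also express, made up most of a summed 87.0 to 135. Red cell markers, led by Hbb-bs, summed to 418 and 168 in telogen, 19.1 and 277.5 in anagen, and 33.2 and 28.8 in the libraries labelled KO, where 3 of 3 measured were called lower, and 1 of 2 without telogen S1. Of 9 fenestral and caveolar and 4 cell cycle genes measured none was called in the libraries labelled KO, but 2 of 9 and 3 of 7 were lower without labelled KO S1, 2 cell cycle genes were lower without telogen S1 and 2 without labelled KO S2, and 1 fenestral gene was higher without labelled KO S2. Of 8 venous markers 2 were higher and 1 lower, with 0 higher without telogen S1 and 4 without labelled KO S2, and 2 lower in each of these and without labelled KO S1. Of 12 panendothelial genes 2 were higher, and 1 without telogen S1, telogen S2 or labelled KO S2. Of 16 flow-responsive and vasoactive genes 2 were higher and 2 lower, with 0 higher without telogen S1 and 4 higher without labelled KO S2.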
